A study of Homo sapiens with 40 samples.

Results

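MYC and PVT1 are neighbouring genes on the long arm of chromosome 8, in band 8q24. The region described here holds every peak of 6 CENP-A ChIP-Seq peak lists that starts between 128600000 and 129199999 on chromosome 8 of hg19, a window of 600 kb. It held 58 of the 5748 listed peaks, and another 1635 listed peaks lay elsewhere in 8q24. MYC spans 128747680 to 128755197 (7.518 kb, plus strand) and PVT1 spans 128806772 to 129199347 (392.6 kb, plus strand), so that 51.6 kb separate the end of MYC from the start of PVT1. No peak of any list shared a base with MYC or with the interval between both genes, and all 58 peaks lay either upstream of MYC or inside PVT1.

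MYC encodes a transcription factor that drives cell growth and division and is often amplified in tumours, and PVT1 is a long noncoding RNA gene that is frequently amplified together with it. CENP-A is the histone H3 variant that marks centromeres, where its chaperone HJURP deposits it. HIRA and DAXX are chaperones of H3.3, the variant placed into chromatin outside of DNA replication, and CENP-A found away from centromeres is called ectopic.

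The cells were SW480, an established human colon cancer line, with siRNA delivered by electroporation and harvest after 72 h. The 6 conditions were control, knockdown of DAXX, of HIRA or of HJURP, and the double knockdowns HIRA+DAXX and HIRA+HJURP. The control is called untreated in the sample labels and control siRNA in the results of the study. CENP-A nucleosomes were precipitated from MNase-digested native chromatin with a human anti-centromere serum, in 4 ChIP libraries for control and each single knockdown and in 2 for each double knockdown, all with input libraries. Since both double knockdowns had 2 libraries and the other conditions 4, the number of libraries and a double knockdown cannot be told apart. Each condition is represented by 1 merged list of peak positions with no height or read count, so the read depth behind a peak is unknown. The study states that sequencing depth differed between replicates and that reads were single- or paired-end. It repeated its genome-wide coverage with equal numbers of reads and reported similar results. The part of depth in the peaks of this region was not tested. The study also reported that the MYC locus is amplified in these cells. It counted more copies per cell after HJURP knockdown than with control siRNA. The part of copy number in the peak numbers, densities and ratios given here was not tested. Values carry no replicate error, and conditions are compared by description, with intervals that cover counting error only. The cells are a single line, and how far each protein was depleted cannot be read from peak positions.

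Of the siRNAs listed with the study, the control and HJURP sequences are shown, and those against HIRA and DAXX are not. The HJURP siRNA identifies the reagent behind the HJURP knockdown list. The sample labels call the control untreated, so they do not show that the cells of the control list received the control siRNA. Capitals mark the longest run of bases shared with an annotated HJURP transcript. Short runs are left unmarked, and only the sequence as written was searched, not its complement. All 21 bases of the HJURP siRNA matched 3 of 9 annotated HJURP transcripts and no transcript of another gene, and the 19 bases of the control siRNA matched no annotated transcript in full.
Control siRNA: caugucauguucacaucuc
HJURP siRNA: CUACUGGGCUCAACUGCAAUU

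The 6 lists differed in number and in spread of peaks. Control, HIRA knockdown and HIRA+DAXX knockdown each had 2 peaks, all at the same place near the 3′ end of PVT1. DAXX knockdown had 15 peaks, HJURP knockdown 19 and HIRA+HJURP knockdown 18, spread over both sides of MYC. Bases in peaks summed to 1.04 kb in control, 2.01 kb after HIRA knockdown and 0.932 kb after HIRA+DAXX knockdown. They summed to 17.6 kb after DAXX knockdown, 23.6 kb after HJURP knockdown and 9.97 kb after HIRA+HJURP knockdown. HIRA+HJURP knockdown was 1 peak below HJURP knockdown, on fewer bases, and the order of the peak numbers depended on how neighbouring calls were counted. With peaks within 1000 bp merged, DAXX knockdown had 13, HJURP knockdown 12 and HIRA+HJURP knockdown 9, and control, HIRA and HIRA+DAXX knockdown kept 2 each.

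**Figure D1:**
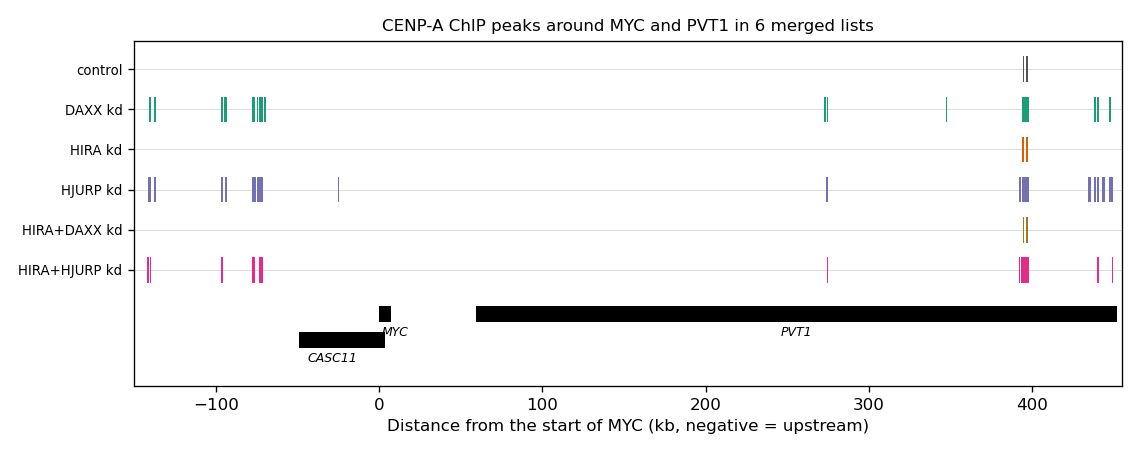
Position of each peak by its distance in kb from the start of MYC (x axis) in each of the 6 lists (y axis, kd = knockdown), with MYC, CASC11 and PVT1 as black bars; marks narrower than 0.9 kb are drawn 0.9 kb wide. Control, HIRA and HIRA+DAXX have 2 peaks each, all near the 3′ end of PVT1, and no list has a peak on MYC.

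With only 2 control peaks, ratios to control have wide counting intervals. Relative to control, peaks were 7.5 times as many after DAXX knockdown (exact 95% interval 1.74 to 67.6), 9.5 times as many after HJURP knockdown (2.29 to 84.1) and 9 times as many after HIRA+HJURP knockdown (2.15 to 80.0). After HIRA and HIRA+DAXX knockdown the ratio was 1 (0.0725 to 13.8 in both). These intervals cover counting error only, and neighbouring peaks are not independent events. In the rest of 8q24 the ratios were 4.73 for DAXX (3.71 to 6.11), 4.47 for HJURP (3.49 to 5.78), 5.78 for HIRA+HJURP (4.55 to 7.44), 1.95 for HIRA (1.48 to 2.59) and 2.76 for HIRA+DAXX (2.12 to 3.62). Over the whole lists they were 2.33 for DAXX, 2.30 for HJURP, 3.88 for HIRA+HJURP, 2.08 for HIRA and 2.50 for HIRA+DAXX. All of these are ratios of peak numbers and not of covered bases. By covered bases the study reported less ectopic CENP-A after HIRA+DAXX knockdown than in control, although that list has more peaks. Each value of the rest of 8q24 and of the whole lists lies inside the wide counting interval of the same knockdown in the MYC and PVT1 region.

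Ratios of bases in peaks were also taken, and have no interval. In the region they were 16.8 for DAXX, 22.6 for HJURP, 9.55 for HIRA+HJURP, 1.92 for HIRA and 0.893 for HIRA+DAXX knockdown. In the rest of 8q24 they were 6.67, 6.49, 4.50, 2.68 and 1.26 in the same order, on 83.5 kb in control and 557.1 kb, 542.3 kb, 375.6 kb, 223.4 kb and 105.3 kb after the knockdowns. The base ratio was thus higher in the region than in the rest of 8q24 for DAXX, HJURP and HIRA+HJURP knockdown and lower for HIRA and HIRA+DAXX knockdown. The control value of the region rests on 2 peaks with a mean width of 522 bp, where control peaks in the rest of 8q24 averaged 1057 bp.

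The region took a small part of every list. It held 0.49% of the listed peaks in control (exact 95% interval 0.0594% to 1.76%), 0.236% after HIRA knockdown (0.0286% to 0.849%) and 0.196% after HIRA+DAXX knockdown (0.0238% to 0.708%). The share was 1.58% after DAXX knockdown (0.884% to 2.59%), 2.02% after HJURP knockdown (1.22% to 3.14%) and 1.14% after HIRA+HJURP knockdown (0.676% to 1.79%). These intervals treat each peak as a separate event and do not compare the conditions.

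MYC itself lay in a stretch without peaks in every list. The nearest peak to MYC in control was 386.8 kb downstream, at 129141986 to 129142501 inside PVT1, and the nearest on the other side was 387.3 kb upstream at 128356671 to 128360415, outside the 600 kb window. HIRA knockdown had its nearest peak 373.0 kb upstream at 128374134 to 128374695, and HIRA+DAXX knockdown 334.8 kb upstream at 128412565 to 128412831, both again outside the window. The nearest downstream peaks of these lists were the PVT1 peaks at 386.0 kb and 386.8 kb.

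In the other lists the nearest peak lay upstream of MYC and closer to it. After DAXX knockdown it was 69.7 kb away at 128677547 to 128677997 (451 bp), in an exon of the noncoding RNA gene ENSG00000286010. After HIRA+HJURP knockdown it was 71.4 kb away at 128676074 to 128676326 (253 bp), also exonic in that gene. HJURP knockdown had the nearest peak of all 6 lists, 24.7 kb upstream of MYC at 128722655 to 128723005, in CASC11, a noncoding RNA gene on the opposite strand that overlaps the start of MYC. This peak was intronic and 351 bp wide, the narrowest of that list in the region, and no other list had a peak in CASC11. Among peaks of 500 bp or wider, the nearest lay 71.3 kb from MYC after HJURP, 71.3 kb after DAXX and 72.7 kb after HIRA+HJURP knockdown. Downstream, the first peaks of these lists were 265.3 kb (DAXX), 266.7 kb (HJURP) and 266.7 kb (HIRA+HJURP) from the end of MYC, all inside PVT1.

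The interval without peaks around MYC was the widest between neighbouring peaks of 8q24 in each of the 6 lists. It measured 781.6 kb in control, 766.5 kb after HIRA knockdown and 729.2 kb after HIRA+DAXX knockdown. It measured 342.5 kb after DAXX knockdown, 298.9 kb after HJURP knockdown and 345.6 kb after HIRA+HJURP knockdown. The next widest intervals were 738.4 kb in control, 456.8 kb after HIRA and 379.3 kb after HIRA+DAXX knockdown, and 193.8 kb, 242.0 kb and 268.5 kb after DAXX, HJURP and HIRA+HJURP knockdown. The control list thus had another empty interval nearly as wide as that around MYC. Median intervals in 8q24 were far shorter, from 0.824 kb after HIRA+HJURP knockdown to 3.61 kb in control.

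Peaks were sparser here than directly beside the region. In control there were 0.333 peaks per 100 kb in the region, 2.25 in the 400 kb before it and 5.5 in the 400 kb after it. HIRA knockdown had 0.333, 5.25 and 8, and HIRA+DAXX knockdown 0.333, 9.5 and 9.25. The lists with more peaks were also lowest in the region, with 2.5, 19.25 and 21.5 after DAXX knockdown, 3.17, 18 and 23.5 after HJURP knockdown, and 3, 20 and 25.75 after HIRA+HJURP knockdown. The share of bases in peaks after HJURP knockdown was 3.93% in the region, 26.8% before it and 37.1% after it.

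**Figure D2:**
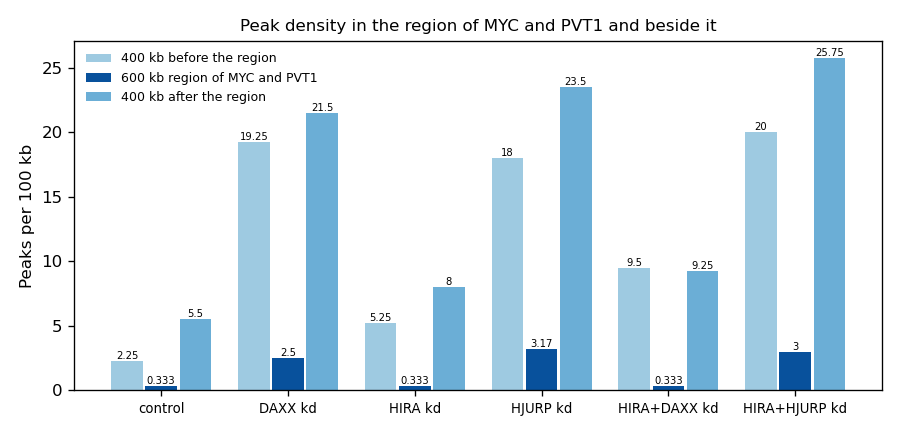
Peaks per 100 kb (y axis) in the 600 kb region and in 400 kb on either side of it, for each list (x axis, kd = knockdown). The region has the lowest bar in every list, from 0.333 to 3.17 peaks per 100 kb, against 2.25 to 25.75 beside it.

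Upstream of MYC, the 147.7 kb of the window held 8 peaks after DAXX knockdown (8.64 kb), 8 after HJURP knockdown (10.5 kb) and 9 after HIRA+HJURP knockdown (3.76 kb). Control, HIRA and HIRA+DAXX knockdown had none there. When peaks of all lists within 10000 bp of each other were joined, the upstream peaks formed 4 stretches, and the same 3 of them were occupied in all 3 lists. The CASC11 peak of HJURP knockdown was the only peak of the remaining stretch.

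The stretch farthest from MYC began at 128605966, ended at 128610625 and lay 137.1 kb away, in intronic bases of the noncoding RNA gene ENSG00000286266. It held 2 peaks and 1.56 kb after DAXX knockdown, 2 peaks and 2.47 kb after HJURP knockdown, and 2 peaks and 0.401 kb after HIRA+HJURP knockdown. The next stretch, at 128650812 to 128654621 and 93.1 kb from MYC, lay in no annotated gene, with 2 peaks in each of the 3 lists on 2.13 kb, 2.36 kb and 1.06 kb in the same order. The stretch nearest to MYC that the 3 lists shared ran from 128669767 to 128677997, 69.7 kb away, and its proximal end reached into ENSG00000286010. It was the richest upstream, with 4 peaks and 4.94 kb after DAXX knockdown, 3 peaks and 5.32 kb after HJURP knockdown, and 5 peaks and 2.30 kb after HIRA+HJURP knockdown. The widest peak of HJURP knockdown in the region, 2532 bp at 128673856 to 128676387, was part of it.

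**Figure D3:**
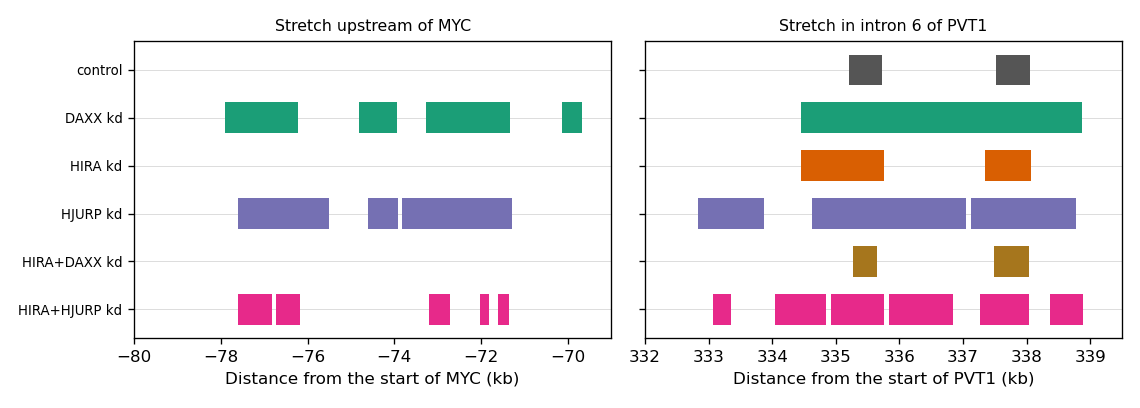
Peaks drawn to scale in each list (y axis, kd = knockdown), on the left in the stretch 69.7 kb upstream of MYC by distance in kb from the start of MYC, on the right in intron 6 of PVT1 by distance in kb from the start of PVT1. On the left 3 lists have peaks and 3 have none, and on the right all 6 lists have peaks, of which the DAXX knockdown peak of 4411 bp is the widest.

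PVT1 held 2 peaks in control, 2 after HIRA knockdown, 2 after HIRA+DAXX knockdown, 7 after DAXX knockdown, 11 after HJURP knockdown and 9 after HIRA+HJURP knockdown. These covered 1.04 kb, 2.01 kb, 0.932 kb, 8.95 kb, 13.1 kb and 6.21 kb in the same order. With peaks within 1000 bp merged, PVT1 held 6 after DAXX, 6 after HJURP and 4 after HIRA+HJURP knockdown, and 2 in each other list. All PVT1 peaks lay in the 3′ part of the gene. The first 213.7 kb of PVT1, or 54.4% of its length, held no peak in any list, and the last peak ended 2.09 kb before the end of the gene. Divided into 10 parts of equal length, PVT1 had peaks in parts 6, 8, 9 and 10 only, and part 9 was the only one with peaks in all 6 lists.

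**Figure D4:**
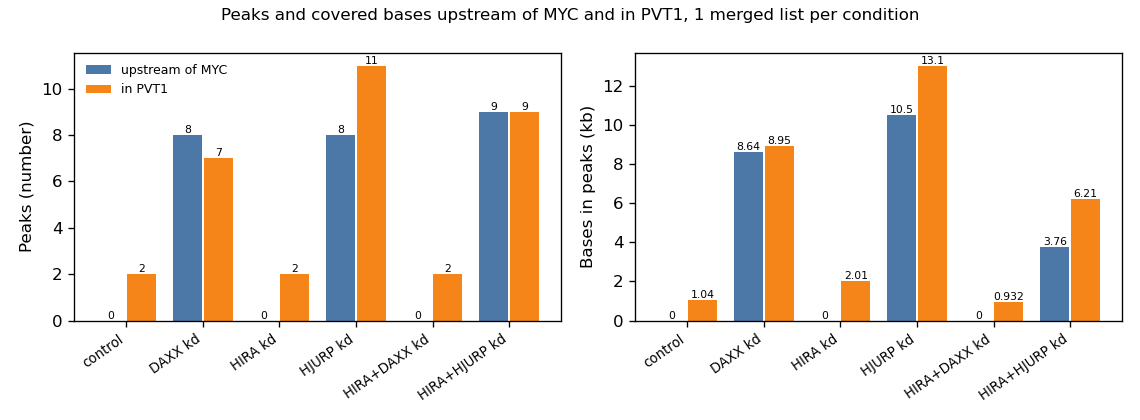
Number of peaks (left y axis) and kb in peaks (right y axis) upstream of MYC (blue) and in PVT1 (orange) for each list (x axis, kd = knockdown), 1 merged list per condition and so no error bars. PVT1 has from 2 to 11 peaks in the 6 lists, and the part upstream of MYC has 8, 8 and 9 peaks after DAXX, HJURP and HIRA+HJURP knockdown and 0 in the others.

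Going from the 5′ to the 3′ end, the first stretch in PVT1 lay 265.3 kb from MYC, at 129020467 to 129022452. It held 2 peaks after DAXX knockdown (0.822 kb), 1 after HJURP knockdown (0.491 kb) and 1 after HIRA+HJURP knockdown (0.473 kb). By the canonical PVT1 transcript, which has 11 exons, these peaks were in intron 4. Exons of other PVT1 transcripts shared 90 bases with the HJURP knockdown peak and 20 bases with the HIRA+HJURP knockdown peak. The same peaks and 1 of the DAXX knockdown peaks also overlapped ENSG00000278275, a transcribed pseudogene on the opposite strand in which all their bases were exonic. The second stretch was a single DAXX knockdown peak of 512 bp at 129094881 to 129095392. It was the only peak of the region whose bases were all exonic in some PVT1 transcript, although the canonical transcript has intron 5 there.

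The third stretch, at 129139602 to 129145663 in intron 6, held peaks of all 6 lists. In control these were 129141986 to 129142501 (516 bp) and 129144292 to 129144819 (528 bp). HIRA+DAXX knockdown had peaks of 379 bp and 553 bp at the same places, and HIRA knockdown peaks of 1296 bp and 711 bp. After DAXX knockdown a single peak of 4411 bp, from 129141230 to 129145640, covered both control peaks and the bases between them. HJURP knockdown had 3 peaks on 5.13 kb and HIRA+HJURP knockdown 6 peaks on 4.25 kb. The control peaks were covered in full in the DAXX, HIRA and HJURP knockdown lists, to 73.4% and 97.2% after HIRA+DAXX knockdown, and to 100% and 98.9% after HIRA+HJURP knockdown. Bases in peaks of all 6 lists were 129142035 to 129142413 (379 bp) and 129144292 to 129144804 (513 bp), beginning 335.3 kb and 337.5 kb from the start of PVT1. Where control had peaks, so did every other list, and the lists differed in how far the peaks extended around that core.

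The last stretch, at 129181623 to 129197257 in intron 10, held 3 peaks after DAXX knockdown (3.21 kb), 7 after HJURP knockdown (7.44 kb) and 2 after HIRA+HJURP knockdown (1.49 kb). The 3′-most peak of PVT1 was 129194788 to 129196143 after DAXX knockdown, 129194889 to 129197257 after HJURP knockdown and 129196399 to 129197249 after HIRA+HJURP knockdown. This was the stretch where HJURP knockdown had the most peaks, and control, HIRA and HIRA+DAXX knockdown had none. How these places relate to PVT1 depends on the transcript. Of 190 annotated PVT1 transcripts, 82 overlapped the first stretch and 116 the second, exons and introns counted alike, but only 2 reached the third and the last. The other 188 transcripts ended at or before 129113502, which is 26.1 kb short of the stretch that all 6 lists shared.

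Among the other genes of the window, ENSG00000286266 had 2 peaks in each of the DAXX, HJURP and HIRA+HJURP knockdown lists, and ENSG00000286010 had 2, 1 and 2. CASC11 had 1 peak after HJURP knockdown, and the pseudogene ENSG00000278275 had 1 peak in each of the same 3 lists. LINC02912, the microRNA genes MIR1205, MIR1207 and MIR1208 and the small nuclear RNA sequences RNU1-106P and RNU4-25P, which all lie within the span of PVT1, had no peak in any list.

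Peaks that touched one another across lists formed 20 sites. A single site, the one in intron 6 from 129140821 to 129145663, was held by all 6 lists. Another 7 sites were held by the DAXX, HJURP and HIRA+HJURP knockdown lists together, 4 by DAXX and HJURP knockdown, 1 by HJURP and HIRA+HJURP knockdown, 4 by HJURP knockdown alone and 3 by DAXX knockdown alone. No site was held by HIRA or HIRA+DAXX knockdown without also being held by control, and none by HIRA+HJURP knockdown without HJURP knockdown. All 18 HIRA+HJURP knockdown peaks touched a HJURP knockdown peak, and 10 of the 19 HJURP knockdown peaks touched a HIRA+HJURP knockdown peak. Between DAXX and HJURP knockdown, 12 of 15 and 14 of 19 peaks touched a peak of the other list, with 14.5 kb in common, or 82.7% of the DAXX and 61.7% of the HJURP knockdown bases.

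Knockdown peaks without a base in a control peak were counted as new. After DAXX knockdown 14 of 15 peaks in the region were new (93.3%, exact 95% interval 68.1% to 99.8%), where 68.6% of all listed DAXX knockdown peaks were. After HJURP knockdown 17 of 19 were new (89.5%, 66.9% to 98.7%), where 66.2% of the whole list was. After HIRA+HJURP knockdown 16 of 18 were new (88.9%, 65.3% to 98.6%), where 64.6% of the whole list was. These intervals treat neighbouring peaks of 1 merged list as separate events, so they cannot set the region against the whole list. Control also had only 2 peaks in the region that a knockdown peak could share. In the rest of 8q24 the shares of DAXX, HJURP and HIRA+HJURP knockdown were 85.0%, 85.3% and 85.3%, close to those of the region. After HIRA knockdown 0 of 2 peaks were new (upper limit 84.2%), where 56.4% of the whole list was, and after HIRA+DAXX knockdown 0 of 2 (upper limit 84.2%), where 49.9% was. In the rest of 8q24 the shares of HIRA and HIRA+DAXX knockdown were 63.6% and 60.1%. With 2 peaks, shares of this size could not have been told from 0.

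The count of new peaks was also taken with a stricter rule for sharing, in which control peaks had to cover at least 50% of a knockdown peak. By this rule 15 of 15 DAXX knockdown peaks were new, where 75% of the whole list was, and 19 of 19 HJURP knockdown peaks, where 70.9% of the whole list was. Of HIRA+HJURP knockdown peaks 16 of 18 were new (whole list 66.8%), of HIRA knockdown peaks 1 of 2 (whole list 61.2%) and of HIRA+DAXX knockdown peaks 0 of 2 (whole list 51.1%). The peaks of the region that this rule added after DAXX, HJURP and HIRA knockdown covered control peaks in full. They counted as new through their width. The rest of 8q24 gave 93.6% for DAXX, 94.1% for HJURP, 91.5% for HIRA+HJURP, 78.6% for HIRA and 63.3% for HIRA+DAXX knockdown.

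Peak width in the region varied with the condition. The median was 522 bp in control, 880 bp after DAXX knockdown (397 to 4411 bp), 1004 bp after HIRA knockdown, 1043 bp after HJURP knockdown (351 to 2532 bp), 466 bp after HIRA+DAXX knockdown and 531 bp after HIRA+HJURP knockdown (147 to 1013 bp). The rest of 8q24 had medians of 817 bp, 1100 bp, 1218 bp, 1079 bp, 349.5 bp and 478 bp in the same order. Both lists with 2 libraries had the narrowest peaks in the rest of 8q24, and the part of the number of libraries in this was not tested. The widest peak of HIRA+HJURP knockdown in the region, 1013 bp at 129142609 to 129143621, lay between both control peaks of PVT1.

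**Figure D5:**
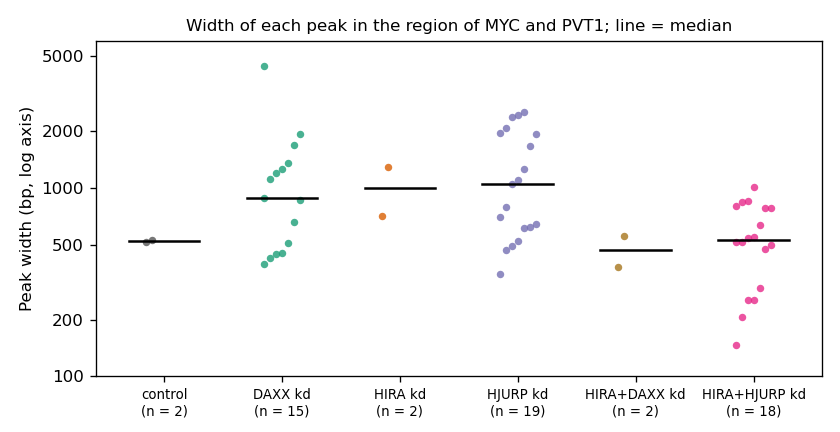
Width in bp (log y axis) of each peak in the region, with the median as a line, for each list (x axis, kd = knockdown, n = peaks). The median is 1043 bp after HJURP knockdown and 531 bp after HIRA+HJURP knockdown, on 19 and 18 peaks.

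The bases at the sites had fewer G and C than their surroundings. The 20 sites together had 39.4% GC, from 36.2% at the site held by all 6 lists to 43.1%, and the remaining bases of the window 45.5%. MYC had 51.5% GC, and the interval without peaks around it in the HJURP knockdown list 46.5%. The same order held in the rest of 8q24, with 36.9% GC in peaks of any list and 40.7% between them. The 400 kb before and after the window, where peaks were denser, had 40.6% and 39.5% GC. The part of base composition in where peaks were listed was not tested.

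Genes related to MYC by function were looked up in the whole lists for comparison. Of 13 genes of the MYC family and its partners, which include MYCN, MYCL and the dimer partner MAX, none had a peak in any list, and MYC was the only one within 500 kb of a peak, in all 6 lists. Of 20176 annotated protein-coding genes, between 0.124% (HJURP knockdown) and 0.193% (HIRA knockdown) had a peak and between 1.58% (HIRA+DAXX knockdown) and 2.76% (HIRA+HJURP knockdown) lay within 500 kb of one, and the counts of 0 and 1 of 13 genes are too small to set beside these shares. The nearest peak to MYCN was 7258 kb away in control, 8405 kb after HIRA+DAXX and 8844 kb after HIRA+HJURP knockdown, and 72986 kb after each of the single knockdowns. Among 15 genes of CENP-A and H3.3 deposition, CENPC, whose protein binds CENP-A nucleosomes, was 67.7 kb from a peak in every list. H3-3B (older symbol H3F3B), which encodes H3.3, had a peak on chromosome 17 at 73775636 to 73776093 in control, with 226 of 458 bases exonic and 183 of them annotated as UTR, and at 73775734 to 73776306 after HIRA knockdown, with 128 of 573 bases exonic. HJURP, HIRA, DAXX and CENPA had no peak within 500 kb in any list.

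The CENP-B box is the motif of alpha satellite DNA that CENP-B binds at centromeres, and it was searched on both strands by its 9 fixed bases (NTTCGNNNNANNCGGGN). The window had no match, and 34 of 229 windows of 600 kb on the same chromosome (14.8%) had at least 1. The absence of these letters says nothing about CENP-B binding.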

How the data were processed

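The data are native CENP-A ChIP-Seq of SW480 cells. Before deposition the authors ran Trimmomatic, Bowtie2 2.2.6 on hg19 and MACS with the matching input as background, and then joined replicate peaks within a condition. A merged peak was deposited when at least 3 replicates had it, and the rule for the double knockdowns with 2 replicates is not given in the sources used here. The deposited values are peak starts and ends, with no score. From these, positions, widths, overlaps of at least 1 base and distances were computed with Python 3.11.15 and numpy 2.4.6; scipy 1.17.1 gave exact intervals, and matplotlib 3.10.9 drew the figures. The interval code was tested on simulated data. Genes are from GENCODE release 44 lifted to GRCh37, and base composition from the GRCh37 assembly. The rest of 8q24 is all peaks beyond 100 Mb on chromosome 8 outside the window. Named regions were, in each list, the nearest peaks to MYC, the widest peak, the first and last peak in PVT1, and sites held by all lists; the stretches were added after the values were seen. The members and gene lists were chosen with earlier results of these data known. A further gene list that was looked up is not reported here.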

Additional observations from a re-analysis of the deposited data

How the results depend on the processing

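Of 100 alternative values, 69 stayed near the reported one and 31 did not, where near means within 1.5 times for counts, kb and distances and within the exact 95% interval for shares. Merging peaks within 10000 bp left 1 peak in the region in control, 7 after DAXX, 1 after HIRA, 7 after HJURP, 1 after HIRA+DAXX and 6 after HIRA+HJURP knockdown. Merging within 1000 bp left 12 in the region and 6 in PVT1 after HJURP knockdown, 9 and 4 after HIRA+HJURP knockdown, and 13 and 6 after DAXX knockdown, which then had the most in the region and as many in PVT1 as HJURP knockdown. Keeping peaks of 500 bp or wider left HIRA+DAXX knockdown with 1 peak in the region, 1 in PVT1 and 0.553 kb, and moved the nearest HJURP knockdown peak to 71.3 kb from MYC, since the CASC11 peak was narrower. When control peaks had to cover 50% of a knockdown peak to share it, 100% of DAXX and of HJURP knockdown peaks and 50% of HIRA knockdown peaks were new, against 75%, 70.9% and 61.2% of the whole lists by the same rule. The peaks of the region added by this rule covered control peaks in full. Extending both sets by 500 bp left 72.2% new after HIRA+HJURP (whole list 53.9%), 93.3% after DAXX (59.3%), 89.5% after HJURP (57.1%), 0% after HIRA (47.8%) and 0% after HIRA+DAXX knockdown (38.8%). As a share of 8q24 peaks, the region held 2.47% in control, 3.86% after DAXX, 1.28% after HIRA, 5.11% after HJURP, 0.909% after HIRA+DAXX and 3.79% after HIRA+HJURP knockdown.

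The following alternatives were chosen after seeing the data and are part of the tally above. All control, HIRA and HIRA+DAXX knockdown peaks of the region lie in the stretch shared by all lists. Their values of 0 below therefore follow by construction. Without the stretch shared by all lists, control, HIRA and HIRA+DAXX knockdown had 0 peaks in the region. With PVT1 bounded by the 188 transcripts that do not reach this stretch, PVT1 had 0 peaks in control, 0 after HIRA, 0 after HIRA+DAXX, 3 after DAXX, 1 after HJURP and 1 after HIRA+HJURP knockdown.

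No paired analysis was possible because each condition is a single merged list and no result comes from a test. Leaving out single replicates was not run for the same reason. Without read counts or heights, a place that lacks a peak cannot be told from one just under the calling threshold, and the number of peaks depends on how neighbouring calls were merged.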
